A study of Mus musculus with 4 samples.

Results

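Eicosanoid synthesis enzymes are the proteins that turn arachidonic acid into thromboxane, prostaglandins, hydroxy acids and leukotrienes. The 9 genes described here were chosen by name, as Pla2g4a, Ptgs1, Ptgs2, Tbxas1, Alox12, Alox5, Alox5ap, Lta4h and Ltc4s, and each matched 1 of the 41214 gene identifiers that were counted. RNA had been sequenced from mouse megakaryocytes, the marrow cells that shed platelets, of C57Bl/6 animals aged 8 weeks. The cells were sorted as lineage negative and positive for cKit, CD41 and CD61 from tibiae, femora and humeri. There were 4 groups of 1 library each, named in the labels as PF4-Cre Gfi1b knockout, PF4-Cre Gfi1b wild-type, ROSA-Cre Gfi1b knockout and ROSA-Cre Gfi1b wild-type. Gfi1b encodes a DNA-binding repressor of blood cells, required where platelets and red cells are made. Megakaryocytes use the Pf4 promoter. Neither the ROSA-Cre allele nor the deleted exons are described further, and each library may hold 1 mouse or several.

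Cytosolic phospholipase A2 (Pla2g4a) frees arachidonic acid from membrane lipids. Cyclooxygenases (Ptgs1 and Ptgs2) convert it to prostaglandin H2, from which thromboxane synthase (Tbxas1) makes thromboxane A2, the platelet agonist whose formation aspirin blocks. Platelet 12-lipoxygenase (Alox12) instead makes the 12-hydroxy acid 12-HETE. The third branch uses 5-lipoxygenase (Alox5) with its activating protein (Alox5ap) to make leukotriene A4, which LTA4 hydrolase (Lta4h) turns into the chemoattractant LTB4 and LTC4 synthase (Ltc4s) into the cysteinyl leukotriene LTC4. The 5-lipoxygenase branch is best known in neutrophils, monocytes, eosinophils and mast cells, while Ptgs1, Tbxas1 and Alox12 are hallmarks of platelets.

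Gene counts totalled 59595680 in the PF4-Cre knockout library, 61652843 in the PF4-Cre wild-type, 21835165 in the ROSA-Cre knockout and 24869421 in the ROSA-Cre wild-type. Levels are given as CPM (counts scaled to the TMM-normalised library size), and levels of different genes are compared only as TPM, which divides by exonic length. Gfi1b itself was higher in the libraries labelled knockout, at 1401 CPM against 170 CPM in PF4-Cre and at 2462 CPM against 238 CPM in ROSA-Cre (log2 fold change 3.21, SE 0.16, with an edgeR adjusted p = 0.000137). Because a count sums all exons this does not check the labels, and knockout means labelled knockout throughout. The genotype effect was tested over both models with edgeR's quasi-likelihood F-test, Cre model as a second term, and Benjamini-Hochberg adjustment over 15063 genes. Its p-values rest on how far the 2 models disagreed (n = 2 libraries per genotype), which may be technical. For each gene that spread was mostly borrowed across all genes, with 1 residual degree of freedom against 6.13 prior ones. Within a model each group has 1 library and there is no replicate check. Ratios within a model carry a 95% Clopper-Pearson interval, which covers counting error only. In bulk RNA, fewer cells of a type and less RNA per cell cannot be told apart.

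Promoters are shown for Alox12, Alox5 and Lta4h because these 3 genes gave the rise, the split between models and a fall described below. The sequences are RefSeq's on GRCm38.p6, from 250 bases before the start to 50 after it, 5′ to 3′ on the gene's strand, with capitals marking a GC box. Alox12 is at chr11:70255321-70255620 and Alox5 at chr6:116461129-116461428, both on the minus strand, and Lta4h is at chr10:93453146-93453445 on the plus strand.
Alox12: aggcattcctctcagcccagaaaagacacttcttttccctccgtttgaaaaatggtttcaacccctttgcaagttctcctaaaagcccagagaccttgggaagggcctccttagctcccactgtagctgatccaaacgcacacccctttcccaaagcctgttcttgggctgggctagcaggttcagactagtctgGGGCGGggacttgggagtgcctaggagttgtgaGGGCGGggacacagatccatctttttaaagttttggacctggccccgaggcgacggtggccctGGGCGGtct
Alox5: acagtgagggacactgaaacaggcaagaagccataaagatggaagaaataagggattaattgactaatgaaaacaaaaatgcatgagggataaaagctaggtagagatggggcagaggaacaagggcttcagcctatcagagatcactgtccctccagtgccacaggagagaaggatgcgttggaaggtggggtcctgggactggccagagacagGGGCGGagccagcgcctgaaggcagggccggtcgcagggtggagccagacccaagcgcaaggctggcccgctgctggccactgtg
Lta4h: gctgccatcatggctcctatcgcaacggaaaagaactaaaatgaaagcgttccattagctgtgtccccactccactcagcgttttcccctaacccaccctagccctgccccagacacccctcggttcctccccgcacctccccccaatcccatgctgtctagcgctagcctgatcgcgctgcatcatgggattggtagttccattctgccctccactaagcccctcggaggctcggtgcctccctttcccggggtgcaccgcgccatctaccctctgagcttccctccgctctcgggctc
The GC box was searched as GGGCGG on both strands and lies in 35.7% of 32851 mouse promoters of the same length. The Alox12 promoter holds 3, starting 55 and 22 bases before the start and 41 bases after it, the Alox5 promoter holds 1, starting 35 bases before, and none was found in that of Lta4h. Of the 9 genes, 8 had a promoter in the table, and Alox5ap did not. Neither AGATAA, the form of the GATA motif searched (11.2% of promoters), nor the GFI1 core AATCAC (10.4%) was found in any of them. Other forms of these motifs were not searched. The RUNX motif TGTGGT (16.8%) matched in Ptgs2 and Ltc4s, and the ETS motif GGAAGT (23.8%) in Ptgs1, Ltc4s and the second of 2 Pla2g4a promoters. These matches describe letters in a window and not binding.

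The 12-lipoxygenase gene rose about 10-fold in both models, while 2 genes of the leukotriene branch fell and the thromboxane branch did not pass the test. Over both models 1 of the 9 genes was higher in knockout (Alox12) and 2 were lower (Alox5ap and Lta4h), against 11.6% of all tested genes higher and 8.72% lower. The median log2 fold change of the 9 genes was -0.32, against -0.02 over all genes tested. Both knockout libraries lay above both wild-type libraries for Alox12 and Tbxas1, 2 of 9 genes, where 23.4% of all genes did so. They lay below for Alox5, Alox5ap, Ltc4s and Lta4h, 4 of 9, where 23.7% of all genes did, and the genotypes overlapped for the other 3.

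**Figure D1:**
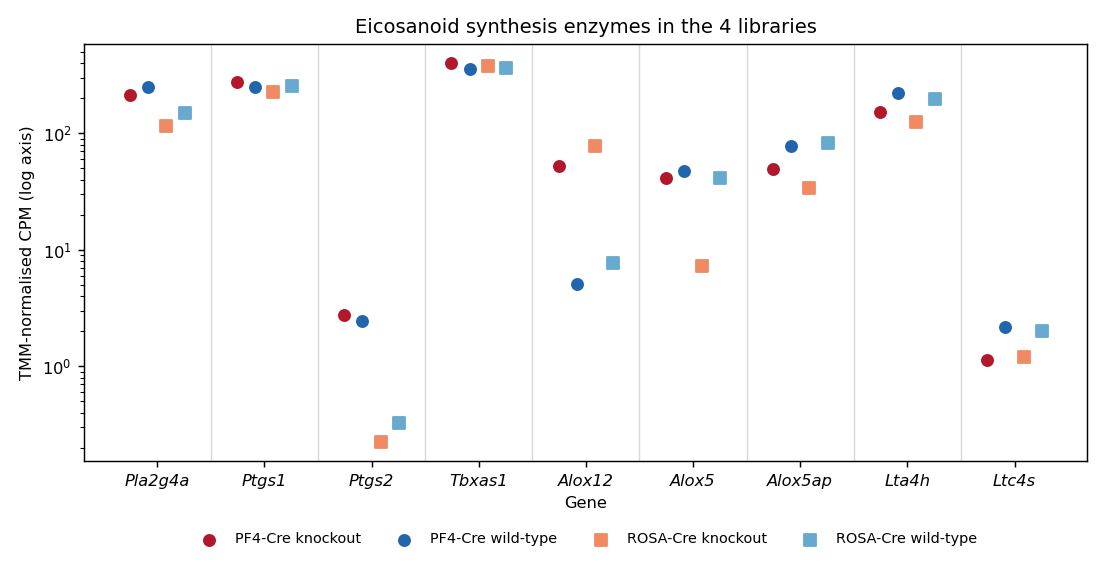
CPM of each gene in each of the 4 libraries, on a log axis, with knockout libraries left of wild-type within each Cre model. Alox12 stood at 52.9 and 78.1 CPM in the knockout libraries against 5.12 and 7.72 CPM in wild-type, and the ROSA-Cre knockout alone was low in Alox5, at 7.28 CPM.

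Within PF4-Cre, 1 of the 9 genes was at least 2-fold higher in knockout (Alox12) and none was 2-fold lower, where 9.8% of all genes were higher and 2.78% lower by that limit. Within ROSA-Cre, 1 was higher (Alox12) and 2 were lower (Alox5 and Alox5ap), where 13.8% of all genes were higher and 7.86% lower. The size of these ratios was therefore much alike between models for Alox12 and Lta4h and unlike for Alox5. A difference in effect between the models cannot be tested with 1 library per group.

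**Figure D2:**
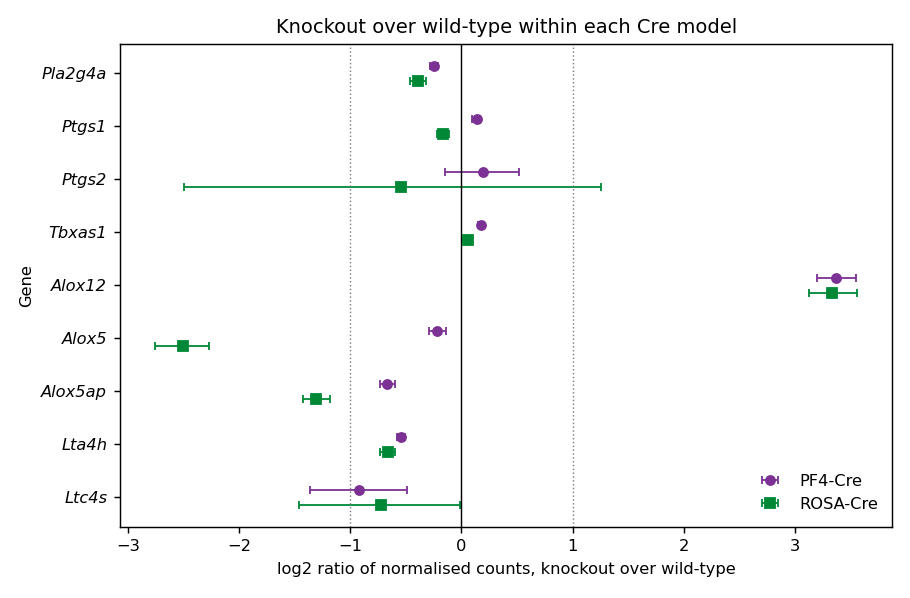
log2 ratio of normalised counts, knockout over wild-type, for each gene in PF4-Cre (circles) and ROSA-Cre (squares), with 95% counting intervals, and dotted lines at 2-fold. The Alox12 points nearly coincide, at ratios of 10.3 and 10.1, and the Alox5 points lie far apart, at 0.861 and 0.176.

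Pla2g4a (ENSMUSG00000056220, chromosome 1 from 149829618 to 149961290, minus strand of GRCm38, protein coding), which supplies the arachidonic acid, had 212 CPM in the PF4-Cre knockout against 251 CPM in the PF4-Cre wild-type. In ROSA-Cre it had 115 CPM in knockout against 151 CPM in wild-type. The knockout was lower in each model, with ratios of 0.844 (0.824 to 0.864) and 0.763 (0.726 to 0.803), but the genotypes overlapped across models. The log2 fold change of -0.32 (SE 0.12) did not pass edgeR's test (adjusted p = 0.111).

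Ptgs1 (ENSMUSG00000047250, chromosome 2 from 36230426 to 36252272, plus strand), the constitutive cyclooxygenase COX-1, had 277 CPM in the PF4-Cre knockout against 252 CPM in its wild-type, and 225 CPM in the ROSA-Cre knockout against 253 CPM in its wild-type. Its ratio was 1.10 (1.07 to 1.12) for PF4-Cre and 0.889 (0.856 to 0.923) for ROSA-Cre, and the log2 fold change over both was -0.02 (SE 0.13, adjusted p = 0.947 by edgeR). Ptgs2 (ENSMUSG00000032487, chromosome 1 from 150100031 to 150108227, plus strand), the inducible COX-2, was scarce. It had 167 counts in the PF4-Cre knockout against 145 in its wild-type, and 5 counts in the ROSA-Cre knockout against 8 in its wild-type. Neither interval excluded 1, at 0.905 to 1.43 in PF4-Cre and, in ROSA-Cre, at 0.177 to 2.38. Ptgs2 made up 0.986% of the counts of both cyclooxygenases in the PF4-Cre knockout against 0.952% in its wild-type, and in ROSA-Cre 0.0991% in knockout against 0.128% in its wild-type. COX-1 transcripts thus outnumbered COX-2 transcripts in all 4 libraries.

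Tbxas1 (ENSMUSG00000029925, chromosome 6 from 38875404 to 39084585, plus strand) had 403 CPM in the PF4-Cre knockout against 358 CPM in its wild-type, and 379 CPM in the ROSA-Cre knockout against 365 CPM in its wild-type. The ratios were 1.13 (1.11 to 1.15) and 1.04 (1.01 to 1.07). Both knockout libraries were above both wild-type libraries, but the log2 fold change of 0.11 (SE 0.12) did not pass edgeR's test (adjusted p = 0.564). On the TPM scale Tbxas1 stood at 0.62 of Ptgs1 in the PF4-Cre knockout against 0.605 in its wild-type, and at 0.718 in the ROSA-Cre knockout against 0.615 in its wild-type. Antisense or experimental models that were not counted share 148 exonic bases with Ptgs1 and 144 with Tbxas1. The counting's strand setting is not given in the sources used here, so their reads cannot be told apart from those of the 2 enzymes.

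Alox12 (ENSMUSG00000000320, chromosome 11 from 70241457 to 70255353, minus strand, protein coding), the platelet 12-lipoxygenase, had 3199 counts (52.9 CPM) in the PF4-Cre knockout against 306 counts (5.12 CPM) in its wild-type. In ROSA-Cre it had 1749 counts (78.1 CPM) in knockout against 190 counts (7.72 CPM) in wild-type. The lowest knockout library was thus well above the highest wild-type library. The ratio was 10.3 (9.18 to 11.7) for PF4-Cre and 10.1 (8.71 to 11.8) for ROSA-Cre. Over both models the log2 fold change was 3.35 (SE 0.16, edgeR adjusted p = 0.000128). Without each library in turn, and with the Cre model term dropped, it lay between 3.05 and 3.70. The longest run of bases that Alox12 transcripts share with Alox15 is 18, and 17 with Alox5, short stretches beside its 4085 exonic bases. Red cell markers also summed higher in knockout, at 189 CPM against 33.2 CPM in wild-type for PF4-Cre and at 303 CPM against 91.2 CPM for ROSA-Cre. Of all genes tested, 11.6% were higher in knockout and 8.72% lower. Of the 7 red cell markers the globins Hba-a1, Hbb-bs and Hbb-bt were higher, Klf1 was lower and the other 3 did not pass the test. Their part in the Alox12 rise was not tested.

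The genes whose pattern over the 4 libraries lay nearest to that of Alox12 were Carmil1, Irf2bpl and Stard9, among 10593 tested genes that averaged 5 CPM or more. The distance, Euclidean in log2 CPM centred on each gene's mean, was 0.22 for Carmil1, 0.232 for Irf2bpl and 0.238 for Stard9. Carmil1, a regulator of actin capping, had 1306 counts in the PF4-Cre knockout against 120 in its wild-type, and in ROSA-Cre 675 in knockout against 89 in its wild-type. Over only 4 libraries many genes with a like rise lie close, so the order among them is a description.

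Alox5 (ENSMUSG00000025701, chromosome 6 from 116410077 to 116461178, minus strand, protein coding) had unlike ratios in the 2 models. It had 2490 counts (41.2 CPM) in the PF4-Cre knockout against 2856 counts (47.8 CPM) in its wild-type. It had 163 counts (7.28 CPM) in the ROSA-Cre knockout against 1020 counts (41.5 CPM) in its wild-type. The other 3 libraries lay close together and the ROSA-Cre knockout stood apart. The ratio was 0.861 (0.816 to 0.909) for PF4-Cre and 0.176 (0.148 to 0.207) for ROSA-Cre, and the log2 fold change of -1.28 (SE 0.47) over both did not pass edgeR's test (adjusted p = 0.0998). A fit to 3 libraries with both terms has no residual degree of freedom, so each fit without a library also drops the Cre model term. In such a fit without the ROSA-Cre knockout the log2 fold change was -0.12 (edgeR adjusted p = 0.97), and without the PF4-Cre knockout it was -2.62 (edgeR adjusted p = 0.000222). With all 4 libraries and no Cre model term it was -0.87 (edgeR adjusted p = 0.644). With no filter on low counts it was -1.26 (SE 0.23) and passed (adjusted p = 1.98e-05 by edgeR).

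Per length, Alox12 was above Alox5 in both knockout libraries and below it in both wild-type libraries. Alox12 stood at 1.29 times the TPM of Alox5 in the PF4-Cre knockout against 0.108 in its wild-type, and at 10.8 in the ROSA-Cre knockout against 0.187 in its wild-type. As a share of the counts of both genes, whose exonic lengths are 4085 and 4106 bases, Alox12 took 56.2% in the PF4-Cre knockout (exact binomial interval 54.9 to 57.5) against 9.68% in its wild-type (8.67 to 10.8). In ROSA-Cre it took 91.5% in knockout (90.1 to 92.7) against 15.7% in wild-type (13.7 to 17.9). Alox15, the 12/15-lipoxygenase that mouse macrophages and human eosinophils carry, had 0.697 TPM in the PF4-Cre knockout against 0.538 TPM in its wild-type, and 14.9 TPM in the ROSA-Cre knockout against 21.9 TPM in its wild-type.

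**Figure D3:**
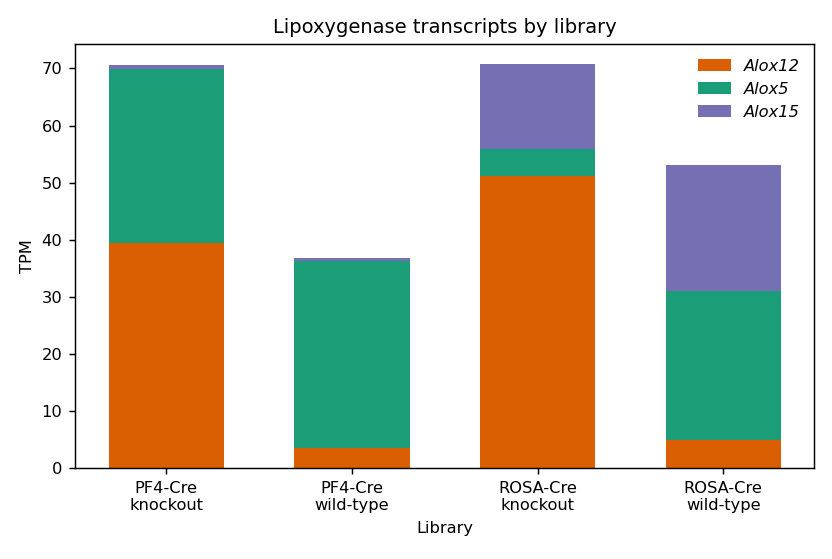
TPM of Alox12, Alox5 and Alox15 stacked for each library. Alox12 makes up 39.4 and 51.1 TPM in the PF4-Cre and ROSA-Cre knockout libraries against 3.53 and 4.91 TPM in the wild-type ones, and Alox15 makes up 14.9 and 21.9 TPM in ROSA-Cre.

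Alox5ap (ENSMUSG00000060063, chromosome 5 from 149264767 to 149288153, plus strand, protein coding), the membrane protein FLAP that presents arachidonic acid to 5-lipoxygenase, fell. It had 2970 counts (49.1 CPM) in the PF4-Cre knockout against 4666 counts (78.1 CPM) in its wild-type, and 753 counts (33.6 CPM) in the ROSA-Cre knockout against 2046 counts (83.1 CPM) in its wild-type. The ratio was 0.629 (0.600 to 0.659) for PF4-Cre and 0.404 (0.372 to 0.440) for ROSA-Cre, and the log2 fold change was -0.98 (SE 0.18, adjusted p = 0.0126 by edgeR). With the Cre model term dropped the call did not hold, with all 4 libraries (edgeR adjusted p = 0.169) or without any 1 of them (log2 fold change between -1.26 and -0.72, edgeR adjusted p between 0.0626 and 0.54). An antisense gene that was not counted shares 189 of its exonic bases.

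Lta4h (ENSMUSG00000015889, chromosome 10 from 93453411 to 93484875, plus strand, protein coding), which makes LTB4, fell by a similar ratio in both models. It had 151 CPM in the PF4-Cre knockout against 221 CPM in its wild-type, and 125 CPM in the ROSA-Cre knockout against 198 CPM in its wild-type. The ratio was 0.686 (0.668 to 0.705) for PF4-Cre and 0.632 (0.603 to 0.662) for ROSA-Cre, and the log2 fold change was -0.60 (SE 0.12, adjusted p = 0.0178 by edgeR). With the Cre model term dropped it did not pass edgeR's test, with all 4 libraries (adjusted p = 0.281) or without any 1 of them (log2 fold change between -0.74 and -0.47, adjusted p between 0.342 and 0.805).

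Ltc4s (ENSMUSG00000020377, chromosome 11 from 50236461 to 50238616, minus strand, protein coding), which makes LTC4, was scarce. It had 69 counts (1.14 CPM) in the PF4-Cre knockout against 129 counts (2.16 CPM) in its wild-type, and 27 counts (1.21 CPM) in the ROSA-Cre knockout against 49 counts (1.99 CPM) in its wild-type. Both knockout libraries were below both wild-type libraries, with ratios of 0.528 (0.389 to 0.713) and 0.606 (0.364 to 0.988). The log2 fold change of -0.83 (SE 0.39) did not pass edgeR's test (adjusted p = 0.179). The antisense gene Gm26542 shares 268 of its 1014 exonic bases and had 7 to 29 counts, so part of these reads is uncertain.

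Some markers of other cell types were also lower in knockout. Over all genes tested 11.6% were higher in knockout and 8.72% lower, the shares to set beside the counts in this and the next paragraph. Neutrophil markers summed to 1060 CPM in the PF4-Cre knockout against 1730 CPM in its wild-type, and to 489 CPM in the ROSA-Cre knockout against 1880 CPM in its wild-type, with 4 of 10 markers lower in knockout past the test. These 4 were the early granule genes Mpo, Elane, Prtn3 and Ctsg, with ratios of 0.271 to 0.353 for PF4-Cre. The later neutrophil genes did not pass, and for PF4-Cre Camp, Ngp, S100a8 and S100a9 had ratios of 1.06 to 1.23, against 0.232 to 0.347 for ROSA-Cre. Ltf and Ly6g had ratios of 0.995 and 0.838 for PF4-Cre, against 0.226 and 0.526 for ROSA-Cre. The median log2 ratio of the list was -0.13 for PF4-Cre and -1.95 for ROSA-Cre. Monocyte and macrophage markers summed to 73.5 CPM in the PF4-Cre knockout against 107 CPM in its wild-type. In ROSA-Cre they summed to 50.5 CPM in knockout against 148 CPM in wild-type. Of these markers 4 of 10 were lower past the test, Ly6c2 among them. Fcgr1 in PF4-Cre (ratio 1.78) and Cd14 in both models (1.30 and 1.26) were higher in knockout, and neither passed. The neutrophil and monocyte sums were both lower by more in ROSA-Cre, the model in which Alox5 and Alox5ap were also lower by more. The megakaryocyte marker sum was lower only in ROSA-Cre, with a ratio of 0.686 against 1.12 in PF4-Cre. The eosinophil sum was lower by more in PF4-Cre, at 0.249 against 0.718 in ROSA-Cre. The part of any of these markers in the result was not tested.

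Eosinophil markers summed to 8.1 CPM in the PF4-Cre knockout against 32.5 CPM in its wild-type, and to 251 CPM in the ROSA-Cre knockout against 349 CPM in its wild-type, with 2 of 7 lower, Prg2 among them. Mast cell and basophil markers summed to 101 CPM in the PF4-Cre knockout against 96.8 CPM in its wild-type and to 120 CPM in the ROSA-Cre knockout against 105 CPM in its wild-type, with 1 of 7 tested genes higher and 1 lower. The mast cell protease genes Tpsb2 and Mcpt4 had 0 counts in 3 of 4 libraries, while per length Cpa3 was the highest of the list in both PF4-Cre libraries and Prss34 in both ROSA-Cre libraries. Megakaryocyte markers, Itga2b and Pf4 among them, were present in every library and summed to 7940 CPM in the PF4-Cre knockout against 7060 CPM in its wild-type, and to 6830 CPM in the ROSA-Cre knockout against 9950 CPM in its wild-type, with 4 of 14 higher and 3 lower. B cell (Cd79b), T and NK cell (Nkg7), red cell (Hbb-bs) and endothelial (Tie1) markers summed to at most 384 CPM in any library, with 3 red cell and 2 endothelial genes higher and 1 red cell gene lower in knockout.

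**Figure D4:**
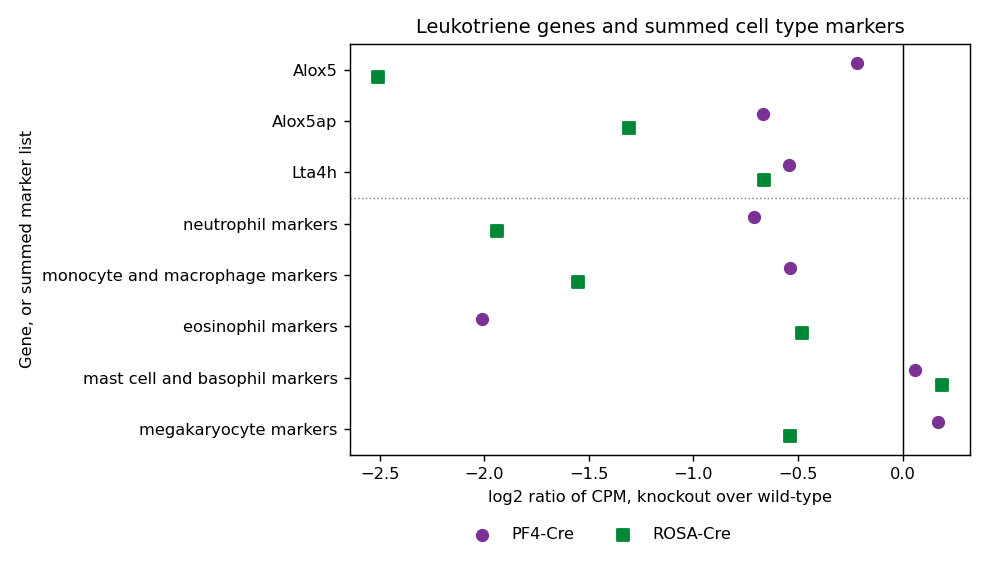
log2 ratio of CPM, knockout over wild-type, of Alox5, Alox5ap and Lta4h and of summed marker lists, in PF4-Cre (circles) and ROSA-Cre (squares). Neutrophil and monocyte sums lie left of 0 in both models and further left in ROSA-Cre (-1.94 and -1.55) than in PF4-Cre (-0.71 and -0.54). The median of the neutrophil list in PF4-Cre is -0.13, and mast cell and basophil markers lie close to 0. The megakaryocyte sum also lies further left in ROSA-Cre (-0.54) than in PF4-Cre (0.17). The eosinophil sum lies further left in PF4-Cre (-2.01) than in ROSA-Cre (-0.48).

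Per length, Ptgs1 was the most abundant of the 9 transcripts in all 4 libraries, at 217 TPM in the PF4-Cre knockout against 183 TPM in its wild-type and at 155 TPM in the ROSA-Cre knockout against 170 TPM in its wild-type. Ptgs2 was the least abundant, at 0.13 to 1.83 TPM. In knockout libraries Ptgs1 was followed by Tbxas1 (135 and 111 TPM) and Alox5ap (105 and 63.3 TPM), whereas in wild-type libraries Alox5ap (155 and 152 TPM) came before Tbxas1 (111 and 104 TPM). Alox12 ranked 6 in the PF4-Cre knockout against 8 in its wild-type, and in ROSA-Cre 5 in knockout against 8 in its wild-type. Pla2g4a and Lta4h had overlapping ranges in each genotype, and their order differed by Cre model. Pla2g4a was the higher in both PF4-Cre libraries, at 101 against 75.5 TPM in knockout and 111 against 102 TPM in wild-type. Lta4h was the higher in both ROSA-Cre libraries, at 54.8 against 48.2 TPM in knockout and 84.4 against 61.3 TPM in wild-type. With 1 library per group this order was not tested. Pla2g4a also overlapped Alox5ap and Alox12 among the knockout libraries and Tbxas1 among the wild-type ones, and Lta4h overlapped Alox5ap among the knockout libraries. The summed TPM of the 9 genes was 708 in the PF4-Cre knockout against 706 in its wild-type, and in ROSA-Cre 492 in knockout against 608 in its wild-type.

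The Cre models also differed. Of the 9 genes, 2 were higher in PF4-Cre than in ROSA-Cre (Ptgs2 and Pla2g4a) and 1 was lower (Alox12), where 9.67% of all genes were higher and 7.36% lower. Ptgs2 had 2.76 and 2.43 CPM in the PF4-Cre libraries, knockout and wild-type, against 0.223 and 0.325 CPM in the ROSA-Cre libraries. The log2 fold change was 3.22 (SE 0.49, adjusted p = 0.00933 by edgeR). With 5 and 8 counts in ROSA-Cre, Ptgs2 passed the filter on low counts because of the PF4-Cre libraries, where it was high. Its call is therefore not independent of that filter. For Pla2g4a the log2 fold change was 0.81 (SE 0.12, edgeR adjusted p = 0.00945), and for Alox12 it was -0.58 (SE 0.15, edgeR adjusted p = 0.0379). Ptgs2 and Pla2g4a are neighbours on chromosome 1, with 139 kb between them. The models differ in depth by up to 2.82-fold, and mice, sort and library preparation cannot be told apart from the Cre model. After a correction for GC content and length none of the 3 passed edgeR's test, with log2 fold changes of 2.57 (adjusted p = 0.0503), 0.48 (0.0935) and -0.47 (0.129) for Ptgs2, Pla2g4a and Alox12. None passed either without any 1 library and with the genotype term dropped, where the log2 fold change of Alox12 ran from -3.06 to 1.91. Of eosinophil markers 6 of 7 were lower in PF4-Cre, and of mast cell and basophil markers 2 were higher and 2 lower. Their part in these differences was not tested.

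The wider pathway comprised 88 further genes of arachidonic acid supply, metabolism, transport and signalling, of which 57 were abundant enough to test. In knockout 7 were higher, 5 were lower and 45 were not past the test, with a median log2 fold change of -0.08. The called shares, 12.3% higher and 8.77% lower, are close to the 11.6% and 8.72% of all genes tested. Between 4 and 8 were higher and 0 to 1 lower when each library was left out in turn and the Cre model term dropped. In the comparison of Cre models Alox15, Tbxa2r and Ptger1 were lower in PF4-Cre than in ROSA-Cre.

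**Figure D5:**
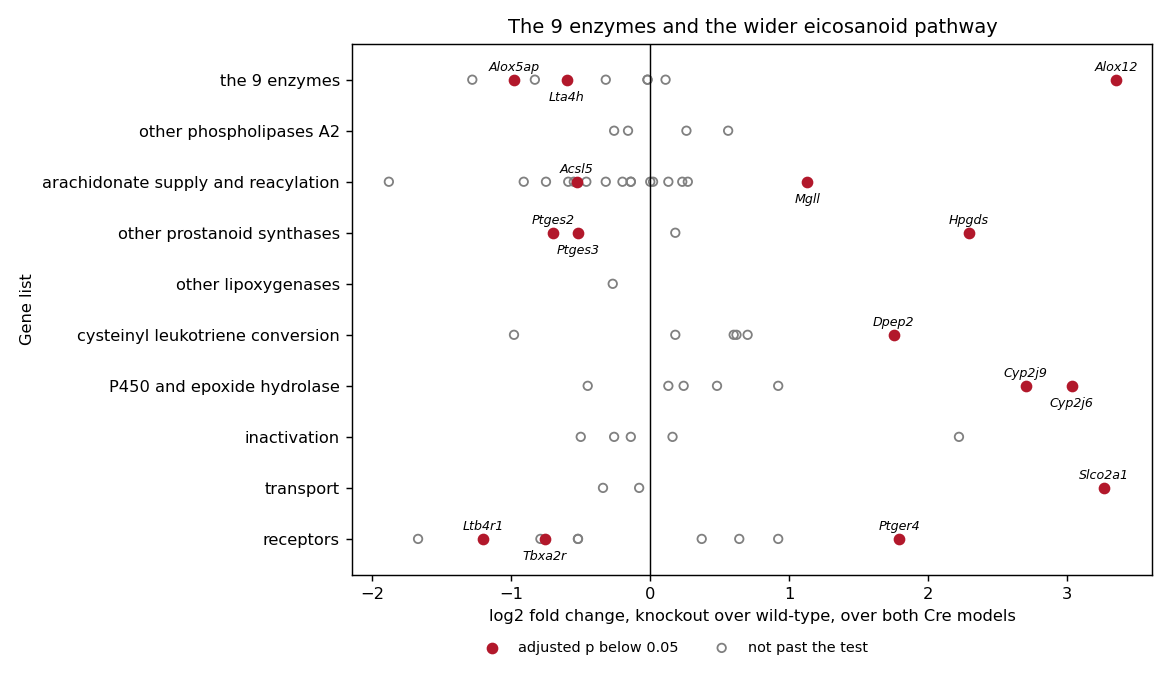
log2 fold change over both models, knockout over wild-type, of each tested gene by list, with filled points past edgeR's test and named. Alox12 and the 2 called P450 genes lie furthest right with Slco2a1, and 7 called genes lie left of 0, Alox5ap and Lta4h among them. Slco2a1 passed the filter on low counts only through the knockout libraries.

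Among other prostanoid synthases 1 of 4 tested genes was higher and 2 were lower. Hpgds, the haematopoietic prostaglandin D synthase, had 1196 counts in the PF4-Cre knockout against 213 in its wild-type, and in ROSA-Cre 241 in knockout against 63 in its wild-type (log2 fold change 2.29, SE 0.25, adjusted p = 0.00236 by edgeR). Ptges2 and Ptges3, which are prostaglandin E synthases, fell, with log2 fold changes of -0.70 (SE 0.19, edgeR adjusted p = 0.0402) and -0.52 (SE 0.14, edgeR adjusted p = 0.0452). The genotypes did not overlap for any of these 3 genes. Of all genes tested, 23.4% had both knockout libraries above both wild-type libraries and 23.7% had them below. As the 3 genes were named for passing the test, this adds no separate support. Mast cells also carry Hpgds, and of their markers Fcer1a was higher and Hdc lower in knockout; their part in this rise was not tested.

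Of the genes for cysteinyl leukotriene conversion 1 of 6 was higher, Dpep2, a dipeptidase that turns LTD4 into LTE4, with 5.08 CPM in the PF4-Cre knockout against 1.42 CPM in its wild-type and 7.32 CPM in the ROSA-Cre knockout against 2.32 CPM in its wild-type (log2 fold change 1.75, SE 0.31, adjusted p = 0.0126 by edgeR). Of 7 P450 and epoxide hydrolase genes 2 were higher. Cyp2j6 had 37.3 CPM in the PF4-Cre knockout against 6.01 CPM in its wild-type, and 51.0 CPM in the ROSA-Cre knockout against 4.59 CPM in its wild-type (log2 fold change 3.03, SE 0.24, adjusted p = 0.000638). Its paralogue Cyp2j9 rose by 2.70 (SE 0.35, adjusted p = 0.00412), and the 2 share an identical run of 35 bases, so the split of reads between them is uncertain. Both belong to the Cyp2j family, whose members can epoxidise arachidonic acid.

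Slco2a1, the prostaglandin transporter, was the 1 gene of 3 tested for transport that passed, at low counts. It passed the filter on low counts only through the knockout libraries, where it was high, so the call is not independent of that filter. With no filter it was also higher past edgeR's test. It had 94 counts in the PF4-Cre knockout against 10 in its wild-type, and in ROSA-Cre 38 in knockout against 4 in its wild-type (log2 fold change 3.26, SE 0.52, adjusted p = 0.00857 by edgeR). Of 17 genes of arachidonate supply and reacylation 1 was higher and 1 lower. Mgll, the monoacylglycerol lipase that can free arachidonate from arachidonoylglycerol, rose by 1.13 (SE 0.16, adjusted p = 0.00592), and Acsl5, a long-chain acyl-CoA synthetase, fell by 0.53 (SE 0.14, adjusted p = 0.0355). Neither gene's genotypes overlapped, which adds no separate support for genes named for passing the test. Of all genes tested, 23.4% lay above in both knockout libraries and 23.7% below.

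Of 10 tested receptor genes 1 was higher and 2 were lower. Ptger4, the prostaglandin E receptor EP4, had 5.47 CPM in the PF4-Cre knockout against 2.13 CPM in its wild-type, and 14.4 CPM in the ROSA-Cre knockout against 3.05 CPM in its wild-type (log2 fold change 1.79, SE 0.32, adjusted p = 0.0126 by edgeR). Tbxa2r, the thromboxane receptor, had 26.0 CPM in the PF4-Cre knockout against 35.5 CPM in its wild-type. In ROSA-Cre it had 38.9 CPM in knockout against 81.8 CPM in wild-type. Over both models its log2 fold change was -0.76 (SE 0.18, adjusted p = 0.0281 by edgeR). Its genotypes overlapped, as the ROSA-Cre knockout lay above the PF4-Cre wild-type. Ltb4r1, the LTB4 receptor of neutrophils and other leukocytes, fell (log2 fold change -1.20, SE 0.33, edgeR adjusted p = 0.0419) but did not pass the DESeq2 Wald test. The neutrophil marker sum was also lower in both models, but the median log2 ratio of that list was -0.13 for PF4-Cre and -1.95 for ROSA-Cre. For PF4-Cre the later genes Camp, Ngp, S100a8 and S100a9 went the other way, while Ltf and Ly6g, with ratios of 0.995 and 0.838, did not. A relation of these markers to Ltb4r1 was not tested. Among other phospholipases A2 (4 tested, Pla2g6 with the highest mean CPM) neither the main edgeR fit nor the DESeq2 Wald test called a gene. Nor did they among other lipoxygenases (1 tested, Alox15) and inactivation (5 tested, Ptgr2 with the highest mean CPM). At an unadjusted p under 0.05 the main edgeR fit took 0, 0 and 1 of these. That 1 was Hpgd, which begins the breakdown of prostaglandins, with 43.2 CPM in the PF4-Cre knockout against 3.85 CPM in its wild-type, and 3.35 CPM in the ROSA-Cre knockout against 2.40 CPM in its wild-type (edgeR adjusted p = 0.0544). Only the PF4-Cre knockout was high in it. Alox15 differed by Cre model, with a log2 fold change of PF4-Cre over ROSA-Cre of -5.02 (SE 0.34, adjusted p = 0.0012 by edgeR). Eosinophil markers summed to 8.1 and 32.5 CPM in the PF4-Cre libraries against 251 and 349 CPM in the ROSA-Cre libraries, and their part in the Alox15 difference was not tested.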

How the data were processed

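Stranded TruSeq mRNA libraries were sequenced paired-end from MagMax-96 RNA, per the labels' protocols. The authors deposited raw HTSeq counts per Ensembl gene, not normalised. The submitters' processing notes list the tools DESeq, HTSeq, SAMtools and TopHat2 (2.0.10) with builds GRCm38 and mm10. Strand setting and annotation release: not given in the sources used here. Categories that name no gene (reads with no gene 32.1% to 36.2%, ambiguous 0.448% to 0.532%) stayed out of totals. Symbols and coordinates (GENCODE M21) matched 40340 of 41214 identifiers. A count of 0 allows 0.0487 to 0.137 CPM (3 counts).

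Testing used R 4.3.3 and edgeR 4.0.16 with TMM, filterByExpr by genotype (minimum count 10), Cre model and genotype as terms, quasi-likelihood F-test, Benjamini-Hochberg at 0.05. There was 1 residual degree of freedom, 6.13 prior ones and a common biological coefficient of variation of 16.1%. Each SE is the absolute log2 fold change divided by the root of the F statistic. The within-model 2-fold limit used a pseudocount of 1. On simulated counts (15063 genes) the genotype test recovered 38 of 50 genes raised 2-fold, 41 of 50 lowered 2-fold, and 50 of 50 each way at 8-fold. The simulation had the same dispersion for every gene and no Cre model difference, and it changed only genes averaging 5 CPM or more. These shares are therefore not the power of the test in the real libraries or for scarcer genes.

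The 9 genes, the lists and the rule for named genes were chosen with earlier results of these data known. The rule took the 9 genes and Gfi1b, in each pathway list up to 4 genes past the genotype test or else the one of highest mean CPM, the marker of highest mean CPM for each cell type and the 3 genes nearest Alox12. Ptger1, Hpgd, Fcer1a, Hdc, Tpsb2, Mcpt4, Cma1, Cpa3, Pf4, Fcgr1, Cd14 and the other neutrophil and red cell markers were named after their values were seen. The GC box was chosen after the promoters were read. Alternatives were DESeq2 1.42.0 size factors and Wald test, other filters, terms, priors, size limits and each library left out with the other term dropped. A correction for GC content and length (natural splines with 4 degrees of freedom) was added after seeing the data.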

Additional observations from a re-analysis of the deposited data

Results flagged for a closer look

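Ptgs1 moved in opposite directions in the 2 Cre models. Its knockout over wild-type ratio was 1.1 in PF4-Cre and 0.889 in ROSA-Cre, and neither counting interval included 1. With 1 library per group the difference was not tested.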

How the results depend on the processing

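Each fit without a library also drops the other term, since 3 libraries leave it no residual degree of freedom, so the 2 changes cannot be told apart. Alox12 was higher in knockout in every alternative and without each library in turn (log2 fold change 3.05 to 3.70). The other counts of called genes were less stable. The 2 genes lower in knockout became 0 with no Cre model term (2 at an unadjusted p under 0.05) and 0 to 1 without each library (where 0, then 0 to 2 at an unadjusted p), the 1 being Alox5 without the PF4-Cre knockout. The 2 genes higher in PF4-Cre became 1 with a mean of at least 5 CPM, which drops Ptgs2, and 0 with no genotype term, after the GC and length correction and without any 1 library (2, 3 and 1 to 4 at an unadjusted p). The 1 gene lower in PF4-Cre became 0 under the last 3 (0, 1 and 0 at an unadjusted p). The log2 difference of that gene, Alox12, lay between -3.06 and 1.91 without each library and reversed to 0.31 without the PF4-Cre wild-type and 1.91 without the ROSA-Cre knockout, where the genotypes are unbalanced. Of pathway genes, the 7 higher became 1 with no Cre model term and 4 to 8 without each library. The 5 lower became 10 with no filter, 3 with a mean of at least 5 CPM, 0 with no Cre model term and 0 to 1 without each library. At 1.5-fold the limit took 3 genes in PF4-Cre in place of 1 and 5 in ROSA-Cre in place of 3. The cause was not tested.

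Over all genes, 57.2% of 3065 genotype calls were higher in knockout, against 98.3% of 120 with no Cre model term and 80.2% to 89.4% of 585 to 975 without each library. Of 2566 Cre model calls 56.8% were higher in PF4-Cre, against 29.2% of 356 after the GC and length correction, 0 with no genotype term and 0 to 6 without each library. No paired analysis was possible because each group holds 1 library, and the Cre model term takes the place of a block. Ptgs2 had 5 and 8 counts in the ROSA-Cre knockout and wild-type, which limits its ratio there and its comparison between models.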
